A study of Danio rerio with 8 samples.

Results

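The genes described here encode the receptors for GABA, glycine and acetylcholine and the scaffold protein gephyrin. They were chosen by symbol, as the rows whose names begin with those of the GABA-A, GABA-A rho, GABA-B, glycine, nicotinic and muscarinic receptor families or of gephyrin, ignoring case, and that had at least 10 counts in at least 3 libraries. Of 32520 rows, 68 had such a symbol, and 55 of these passed the count filter that left 19412 rows in all. The other 13 rows held between 0 and 58 counts over all libraries together. At the edge of the filter, *chrnd* was kept with 64 counts in all and *chrm5a* was left out with 58.

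RNA was sequenced from heads of zebrafish larvae of the AB strain at 7 dpf (days post-fertilization). There were 4 libraries from wild-type (WT) larvae and 4 from *mtmr5*-KO larvae, from a line homozygous for a CRISPR/Cas9 deletion of the whole *mtmr5* gene (listed as *sbf1*, a myotubularin-related pseudophosphatase). Each library pools heads, with 11 to 17 dissected per genotype, and replicates came from different breeding pairs. The paper describes the WT larvae as siblings. A head holds brain, eyes, inner ear, lateral line, skin, muscle and cartilage, so the levels are averages over all of these, and fewer cells of a type cannot be told apart from less RNA per cell.

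GABA is the main inhibitory transmitter of the brain, and glycine shares this role in the hindbrain, spinal cord and retina. GABA-A receptors and glycine receptors are chloride channels built of several subunits, and both are held at inhibitory synapses by gephyrin. The subunits present set where a GABA-A receptor sits and how it responds. In mammals, receptors at synapses mostly hold a gamma subunit. Receptors with the delta or alpha 5 subunit lie mostly outside synapses and respond to ambient GABA. GABA-B receptors and muscarinic acetylcholine receptors act through G proteins, while nicotinic acetylcholine receptors are cation channels, with separate muscle and neuronal subunits.

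The targeted gene had 1894 to 2545 raw counts per WT library and 26 to 63 per *mtmr5*-KO library. Totals ran from 20514932 to 22761120 counts for WT libraries and from 16104181 to 19170140 for *mtmr5*-KO libraries. Mitochondrially encoded transcripts (13 genes) made up 6.43% to 8.82% of WT counts and 18.6% to 26.6% of *mtmr5*-KO counts, with *mtmr5*-KO replicates 3 and 4 standing apart at 26.3% and 26.6%. The median receptor gene had 130 to 172 raw counts in a WT library and 51 to 90 in an *mtmr5*-KO library, so the *mtmr5*-KO values are the less precise. Unless another scale is named, levels are counts scaled by TMM, edgeR's trimmed-mean factor for each library, given as mean ± SD with n = 4 libraries a genotype. Log2 fold changes are *mtmr5*-KO over WT from edgeR's quasi-likelihood test, ± standard error, with p-values adjusted by Benjamini-Hochberg over all 19412 genes.

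Among the 55 receptor genes, 9 rose and 2 fell in *mtmr5*-KO heads at an adjusted p under 0.05, and 6 of the 9 were GABA-A subunit genes. The shares were 16.4% higher and 3.64% lower, where 13.5% of all tested genes rose and 7.51% fell, so the family as a whole moved about as often as other genes. With the stricter limits of the study (adjusted p below 0.01, log2 fold change beyond 1 in either direction), 5 receptor genes rose (background 7.13%) and 0 fell (background 1.08%). These 5 were *gabra5*, *GABRD*, *gabra4*, *gabrb2a* and *chrna7b*. The genotypes did not overlap in 12 receptor genes, with *mtmr5*-KO the higher in 9 and the lower in 3, where 13.9% of all genes separated upward and 11% downward. The median log2 fold change was 0.11 over the receptor genes and -0.02 over all genes tested, and 13 of the 55 had an unadjusted p under 0.05.

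Among GABA-A subunit genes 6 of 16 (37.5%) rose and 0 fell, with a median log2 fold change of 0.81. None of the 7 glycine receptor genes passed, and their log2 fold changes lay between -0.22 and 0.20. Of the 16 neuronal nicotinic genes 1 rose and 1 fell, with a median of -0.18. In the remaining classes 1 of 3 GABA-B genes and 1 of 2 gephyrin genes rose, 1 of 2 muscarinic genes fell, and 0 of 5 rho and 0 of 4 muscle nicotinic genes passed in either direction.

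**Figure D1:**
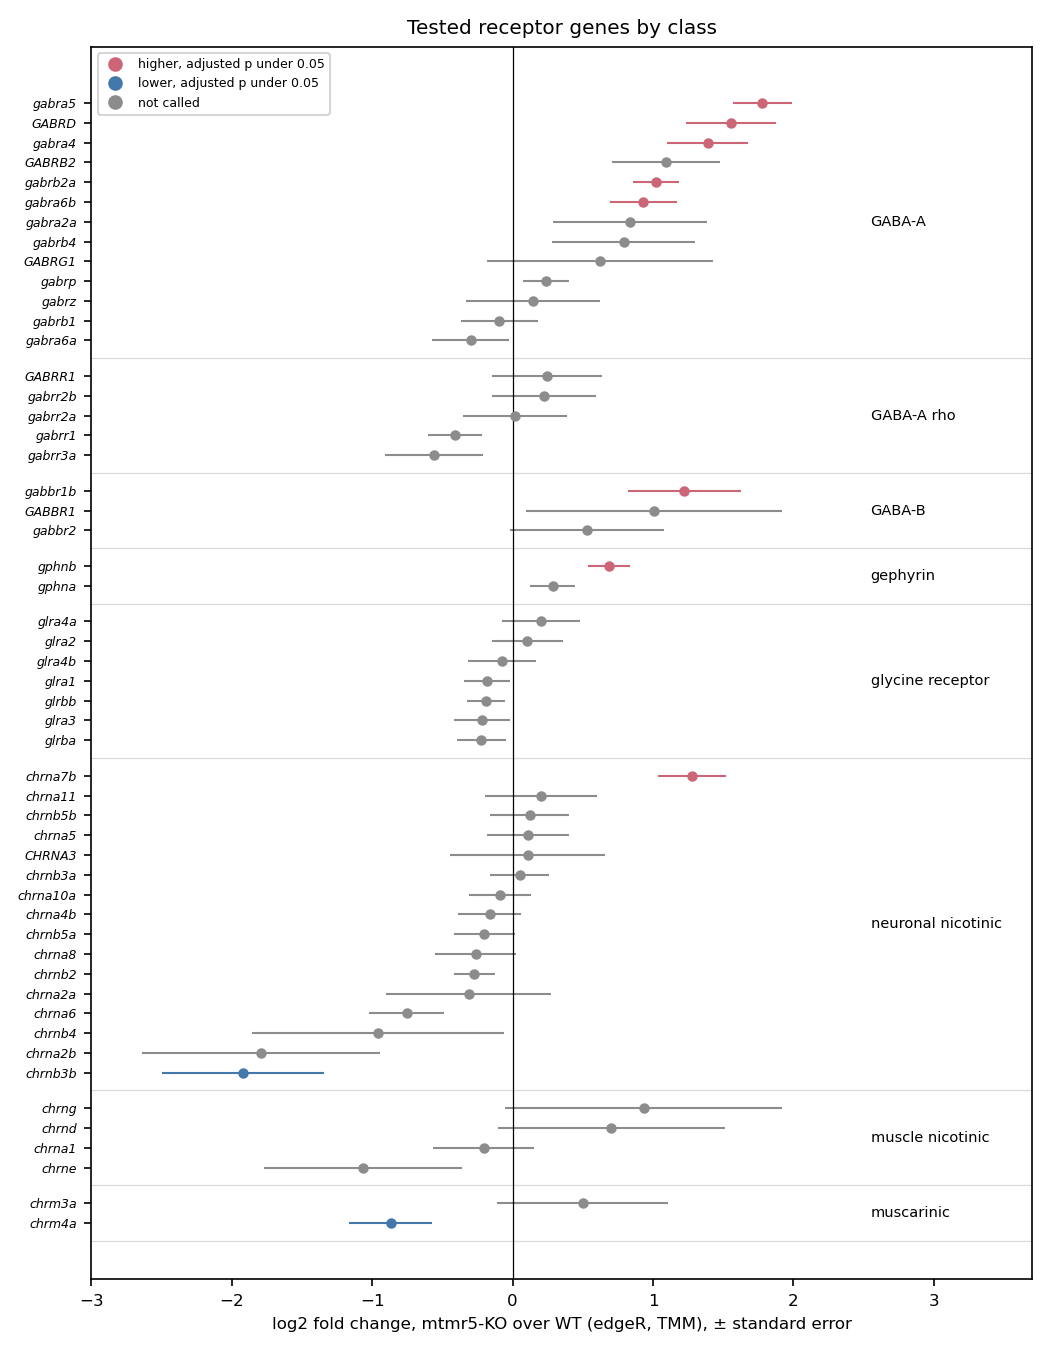
Log2 fold change of *mtmr5*-KO over WT (x axis, TMM scale) for 52 of the 55 tested receptor genes, grouped by class on the y axis, with bars of 1 standard error. Coloured points mark genes past an adjusted p under 0.05. The called GABA-A genes shown lie between 0.93 and 1.78, and the 7 glycine receptor genes lie between -0.22 and 0.20.

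These directions depend on what the libraries are scaled to. With library totals in place of TMM, the median of all genes lay at -0.98, only *gabra5* rose and 28 of the 55 receptor genes fell, where 3.7% of all genes rose and 55.7% fell. With a scale set from pan-neuronal markers, chosen after the data were seen, the median of all genes lay at -0.47, 5 receptor genes rose and 14 fell, where 8.2% of all genes rose and 32.5% fell. Neither count of lower receptor genes exceeds the share over all genes. A change of scale moves all genes by nearly the same amount, so values relative to the median of all genes stay nearly fixed. Their likeness across scalings is therefore no further support. Relative to the median of all genes, the GABA-A median was 0.83 under TMM, 0.81 under library totals and 0.84 under the pan-neuronal scale. Under library totals its own value was below 0 at -0.16. The relative median of the glycine receptor genes was -0.16 under each of these 3 scalings. The relative median of the neuronal nicotinic genes was -0.16 under TMM, -0.16 under library totals and -0.16 under the pan-neuronal scale.

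The largest increase among the receptor genes was in *gabra5*, which encodes the alpha 5 subunit. It was at 121, 154, 154 and 149 in WT replicates 1 to 4 and at 447, 336, 676 and 526 in *mtmr5*-KO replicates 1 to 4. The lowest *mtmr5*-KO library was above the highest WT library by more than the whole WT range. The means were 144 ± 16.1 and 496 ± 143, a log2 fold change of 1.78 ± 0.21 (edgeR, adjusted p = 1.76e-05). It was the only receptor gene whose call held in all 20 alternative settings, library totals included.

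*GABRD*, the delta subunit, which in mammals joins alpha 4 or alpha 6 in receptors outside synapses, was at 88.1, 62.1, 27.2 and 73.7 in WT and at 231, 207, 160 and 141 in *mtmr5*-KO libraries. The groups did not overlap, and WT replicate 3 was the lowest of the 8. The mean went from 62.8 ± 26.0 to 185 ± 41.4, a log2 fold change of 1.56 ± 0.32 (edgeR, adjusted p = 0.00257). The alpha 4 gene, *gabra4*, was at 48.3, 54.4, 62.7 and 109 in WT and at 150, 177, 234 and 156 in *mtmr5*-KO libraries. Here too the groups did not overlap, although WT replicate 4 lay well above the other WT libraries. Its log2 fold change was 1.39 ± 0.29 (edgeR, adjusted p = 0.00276). Thus *GABRD* and *gabra4* were both called higher, as was 1 copy of the alpha 6 gene, *gabra6b*, while the second copy, *gabra6a*, was not.

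Of the beta subunits, which every common GABA-A receptor needs for assembly and for the GABA binding site, *gabrb2a* rose. It was at 1722, 1718, 1807 and 2306 in WT and at 3346, 3307, 3958 and 4725 in *mtmr5*-KO libraries. The 8 libraries separated fully, with the highest value of each genotype in replicate 4. The mean went from 1888 ± 282 to 3834 ± 665, a log2 fold change of 1.02 ± 0.16 (edgeR, adjusted p = 0.000291). A second row, listed as *GABRB2* and named here after its values were seen, did not pass (1.09 ± 0.39, edgeR adjusted p = 0.0569), although its groups did not overlap. With the replicate number as a block it passed (adjusted p = 0.0432).

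*gabra6b*, a copy of the alpha 6 gene, which in mammals marks cerebellar granule cells, rose less. It was at 67.6, 67.0, 60.4 and 62.8 in WT and at 129, 129, 121 and 112 in *mtmr5*-KO libraries. Both genotypes were tight and did not overlap, with a log2 fold change of 0.93 ± 0.24 (edgeR, adjusted p = 0.0118). On the scale of library totals the value changed sign, to -0.02, still 0.95 above the median of all genes.

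The other alpha 6 copy, *gabra6a*, was not called. It was at 660.5, 538, 372 and 475 in WT and at 721, 353, 309 and 275 in *mtmr5*-KO libraries, where *mtmr5*-KO replicate 1 was the highest of the 8 and the groups overlapped. Its log2 fold change was -0.30 ± 0.28 (edgeR, adjusted p = 0.487, and 0.0946 with the block). Without *mtmr5*-KO replicates 3 and 4 its log2 fold change was 0.02. *gabrp*, the pi subunit, named here after its values were seen, was at 359 ± 56.0 and 424 ± 55.6, a log2 fold change of 0.24 ± 0.17 (edgeR, adjusted p = 0.344).

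**Figure D2:**
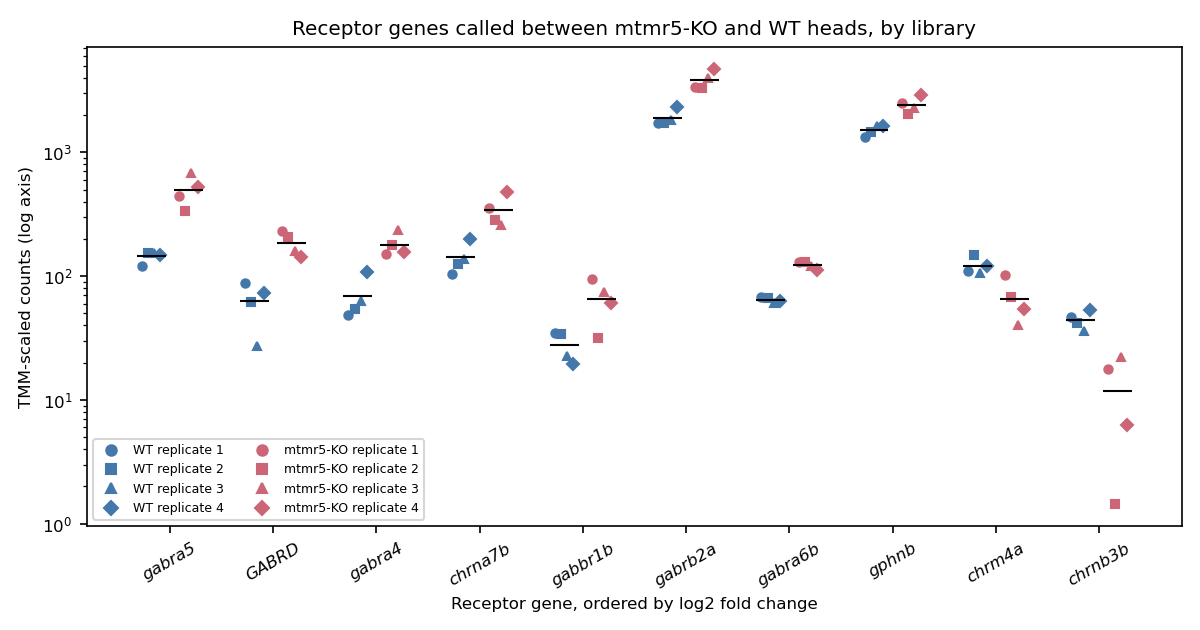
TMM-scaled counts (y axis, log scale) of 10 receptor genes called at an adjusted p under 0.05, with 1 point per library, marked by replicate, and a line at each genotype's mean. *gabra5* lies between 121 and 154 in WT and between 336 and 676 in *mtmr5*-KO, and *gabbr1b* is the only gene shown whose genotypes overlap.

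Within the alpha and beta families the make-up of the counts shifted, which does not depend on library scale. Shares of counts also depend on transcript length, so they are compared only between libraries. Of the counts of the 6 alpha genes, *gabra6a* held 46.0% to 62.3% in WT libraries and 19.2% to 43.4% in *mtmr5*-KO, while *gabra5* held 11.4% to 19.0% and 23.9% to 42.2%. Of the counts of the 5 beta genes, *gabrb2a* held 45.7% to 60.3% in WT libraries and 65.2% to 84.3% in *mtmr5*-KO. None of these 3 genes overlapped between genotypes in its share. Among the others, the share of *gabra6b* was also higher without overlap, and that of *gabrb1* lower. No rate of such separation was taken for shares over all genes. For within-library ratios of a and b gene copies it was 22% of all pairs. In *mtmr5*-KO libraries *gabra6a* thus made up less of its family, and *gabra5* and *gabrb2a* more, and the share of *gabra6a* was lowest in replicates 3 and 4.

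**Figure D3:**
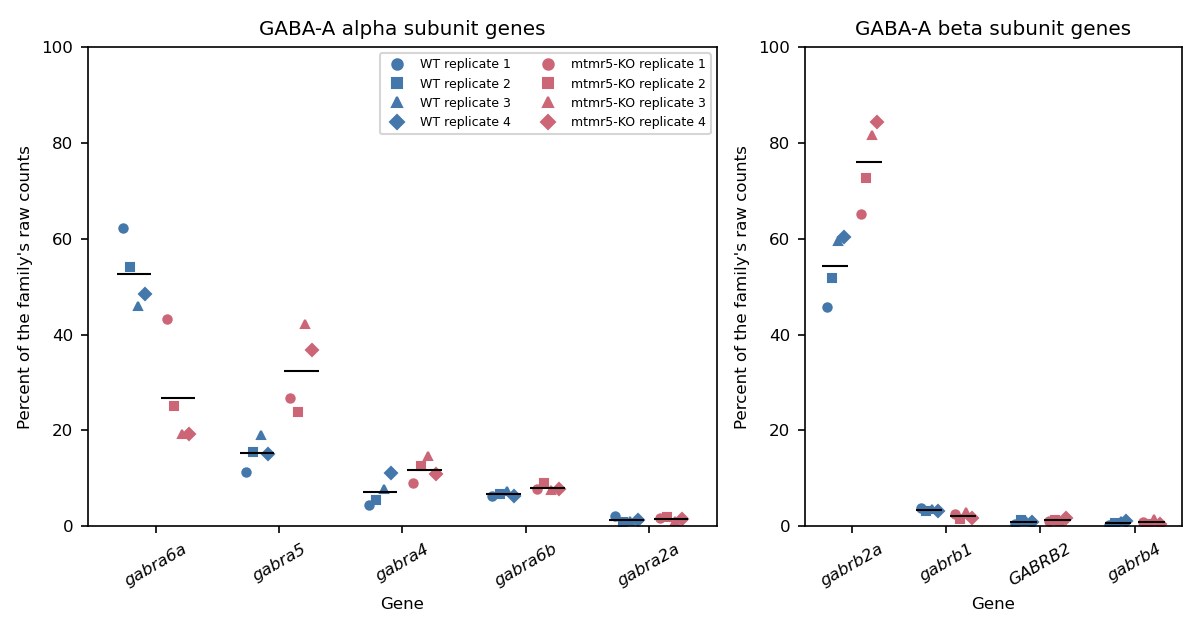
Percent of the raw counts of the GABA-A alpha (left) and beta (right) subunit genes (y axes) held by 5 alpha and 4 beta genes (x axes), with 1 point per library, marked by replicate, and a line at each genotype's mean. *gabra6a* averages 52.7% of alpha counts in WT and 26.7% in *mtmr5*-KO, and *gabrb2a* 54.4% and 75.9% of beta counts.

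Levels of cell type markers moved beside these genes. Over all tested genes 13.5% rose and 7.51% fell, the shares to read beside each count of markers. Of 12 pan-neuronal markers 5 rose and 1 fell, and their summed level ran from 91457 to 118827 over the WT and from 149285 to 174441 over the *mtmr5*-KO libraries. *elavl3* and *elavl4*, RNA-binding proteins of neurons, had the smallest p of these, with log2 fold changes of 1.23 and 0.99. The marker called lower was *stmn2b* (-0.55), and *stmn2a* (-0.41), *stmn1b* (-0.23) and *snap25a* (-0.17) were also below 0 but not called. The summed level of the 16 GABA-A genes ran from 4312 to 5408 over the WT libraries and from 6685 to 7729 over the *mtmr5*-KO libraries. Its mean was 4961 ± 517 in WT and 7283 ± 453 in *mtmr5*-KO, of which *gabrb2a* alone held 1888 and 3834. The sum without *gabrb2a* was not compared. Per 1000 counts of pan-neuronal markers the GABA-A genes were at 47.1 ± 8.50 and 44.6 ± 4.05 and overlapped. The marker sum is carried by *elavl3* and *elavl4*, which together went from 40379 ± 8166 to 89539 ± 13759. The other 10 markers, which singly moved both ways, together went from 66291 ± 4273 to 74408 ± 3264. Per 1000 counts of those 10, a choice made after the data were seen, the GABA-A genes were at 75.3 ± 11.0 in WT and 98.2 ± 9.77 in *mtmr5*-KO and still overlapped. On the pan-neuronal scale, set from all 12 markers, *gabra5*, *gabrb2a*, *GABRD* and *gabra4* were still called higher, while *gabra6b* was not (edgeR, adjusted p = 0.165).

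The summed level of 15 retinal bipolar cell and photoreceptor markers differed widely between libraries, at 203100, 159252, 142014 and 105590 in WT and 198059, 120586, 73293 and 52807 in *mtmr5*-KO. In each replicate number the *mtmr5*-KO value was the lower, and of the single markers 1 rose and 0 fell. Photoreceptor genes carried most of the sum, with WT means of 46046 for *opn1sw1*, 41720 for *rho*, 27693 for *gnat2* and 21729 for *opn1mw1*. Log2 fold changes of bipolar cell markers went both ways, with *grm6b* called higher (0.42), and *trpm1b* (0.14), *vsx1* (-0.47) and *trpm1a* (-0.25) not called. None of the 15 markers was at 0 in every library, and values of 0 in single libraries were not counted. Liver markers, from a tissue outside the head, rose in 8 of 9, with a median log2 fold change of 2.16 and sums of 528 to 786 for WT libraries and 1378 to 4434 for *mtmr5*-KO libraries. The part of the retinal or liver signal in the values of *gabra6a* or any other receptor gene was not tested.

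The rho subunits form GABA-A receptors found mainly in the retina. The 5 rho genes had log2 fold changes from -0.56 to 0.25, and every one overlapped between genotypes. *gabrr1*, with the smallest p, was at 692, 622, 445 and 525 in WT and 572.5, 449, 355 and 341 in *mtmr5*-KO libraries, lower in 4 of 4 replicate numbers. Its log2 fold change was -0.41 ± 0.19 (edgeR, adjusted p = 0.149), and with the replicate block it was -0.42 ± 0.14 and passed (adjusted p = 0.0303). *gabrr2a* was at 109 ± 58.6 in WT and 109.5 ± 43.8 in *mtmr5*-KO, a log2 fold change of 0.02 ± 0.37.

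GABA-B receptors need a subunit that binds GABA, here the rows *gabbr1b* and *GABBR1*, and a partner that couples to the G protein, *gabbr2*. *gabbr1b* was at 35.0, 34.2, 22.6 and 19.4 in WT and 95.2, 31.5, 74.7 and 60.3 in *mtmr5*-KO libraries, and only replicate 2 of the *mtmr5*-KO libraries lay in the WT range. It was called higher (1.22 ± 0.40, edgeR adjusted p = 0.0417), but the call held in only 1 of 8 fits that left out a library, the one without *mtmr5*-KO replicate 2. The row listed as *GABBR1*, whose relation to *gabbr1b* was not checked by sequence, was at 33.2, 161, 267 and 453 in WT and 93.5, 352, 458 and 940 in *mtmr5*-KO libraries. The spread within a genotype was larger than the difference between genotypes, yet each *mtmr5*-KO library was above the WT library of its own number. Without the block its log2 fold change was 1.01 ± 0.91 (edgeR, adjusted p = 0.50), and with it 1.08 ± 0.17 (adjusted p = 5.89e-05). Without *mtmr5*-KO replicates 3 and 4 and without the block the fitted value was -0.04. *gabbr2* was at 15.0 ± 5.61 and 21.7 ± 6.20, a log2 fold change of 0.53 ± 0.55, with at most 32 raw counts in a library.

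Both copies of gephyrin, the scaffold that anchors glycine receptors and many GABA-A receptors, had higher means in *mtmr5*-KO heads. *gphnb* was at 1319, 1450, 1627 and 1627 in WT and 2516, 2048, 2262 and 2876 in *mtmr5*-KO libraries. The groups did not overlap, and its log2 fold change was 0.69 ± 0.15 (edgeR, adjusted p = 0.00346). *gphna* was at 2465 ± 309 and 3002 ± 604, a log2 fold change of 0.28 ± 0.16 (edgeR, adjusted p = 0.24). On the scale of library totals these directions turned, to -0.28 for *gphnb* and -0.68 for *gphna*, and on the pan-neuronal scale *gphna* was at -0.14. *gphnb* was at 0.26 on the pan-neuronal scale and was no longer called (edgeR, adjusted p = 0.202).

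None of the glycine receptor genes was called. *glrbb*, a beta subunit that binds gephyrin and the member with the smallest p, was at 1489, 1617, 1670.5 and 1898 in WT and 1585, 1401, 1395 and 1464 in *mtmr5*-KO libraries. The groups overlapped in *mtmr5*-KO replicate 1, and the log2 fold change was -0.19 ± 0.13 (edgeR, adjusted p = 0.345). *glra3*, an alpha subunit, was at 756 ± 93.8 and 649 ± 227 (-0.22 ± 0.20, edgeR adjusted p = 0.489). Summed over the 7 genes, the level was 3787 to 4146 in WT libraries and 3402 to 3740 in *mtmr5*-KO, which did not overlap although no single gene passed. Of the mean sums, 3903 in WT and 3503 in *mtmr5*-KO, *glrbb* alone held 1669 and 1461. Of all single genes 11% separated downward, and no such rate was taken for sums. Per 1000 pan-neuronal marker counts the 7 genes together were at 36.9 ± 3.39 and 21.5 ± 2.50, also without overlap. Without *elavl3* and *elavl4* in the marker sum they were at 55.8 to 63.0 for WT and 44.8 to 48.9 for *mtmr5*-KO, again without overlap. In the fit scaled to all 12 pan-neuronal markers, by their mean log count, *glra1*, *glra3*, *glrba* and *glrbb* were called lower, as all 7 were under library totals. That fit was not repeated without *elavl3* and *elavl4*. Many genes fell on the pan-neuronal and library-total scales, 32.5% and 55.7% of all tested, and the class lay 0.16 below the median of all genes on both.

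**Figure D4:**
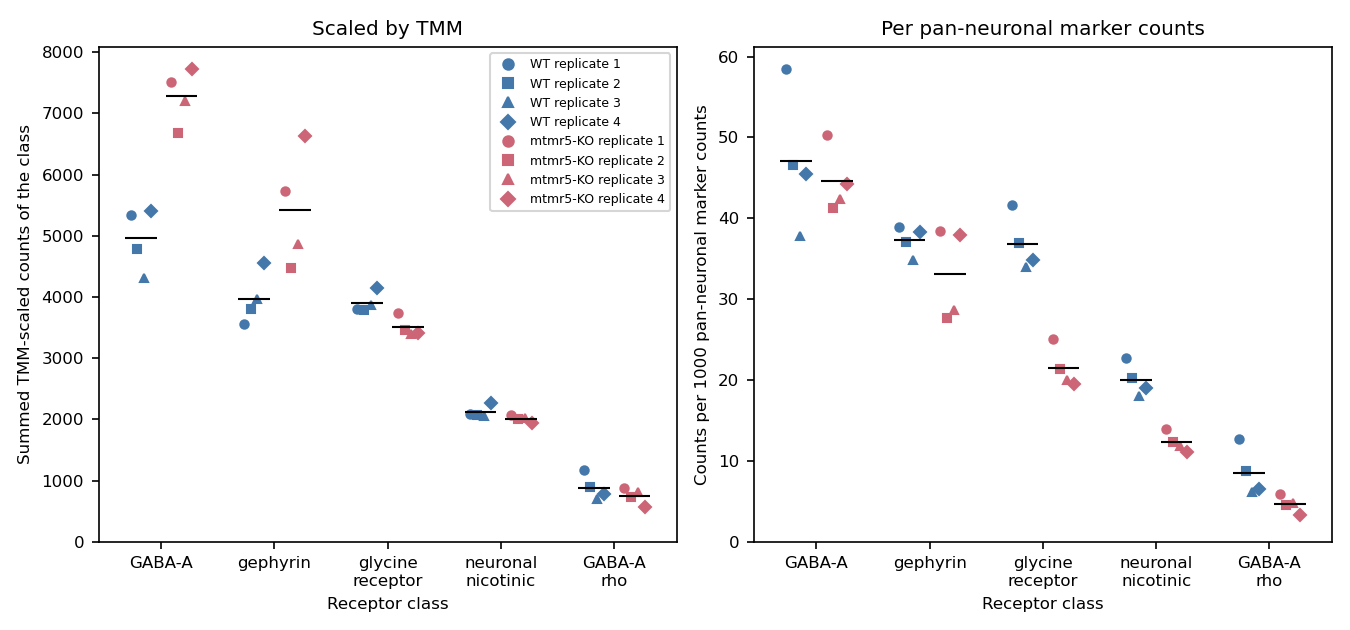
Summed level of 5 receptor classes in each library, as TMM-scaled counts (left, y axis) and per 1000 counts of pan-neuronal markers (right, y axis), with lines at the genotype means. GABA-A genotypes separate on the left (4312 to 5408 against 6685 to 7729) and overlap on the right, while the glycine receptor class separates on both. Of the GABA-A means on the left, 4961 in WT and 7283 in *mtmr5*-KO, *gabrb2a* alone holds 1888 and 3834. Of the glycine receptor means, 3903 and 3503, *glrbb* alone holds 1669 and 1461.

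Among the neuronal nicotinic genes, *chrna7b* rose. It encodes a copy of alpha 7, which in mammals forms receptors on its own that pass calcium. It was at 104, 125, 138 and 200 in WT and at 356, 283, 258.5 and 478 in *mtmr5*-KO libraries. The groups did not overlap, and the mean went from 142 ± 41.4 to 344 ± 98.7, a log2 fold change of 1.28 ± 0.24 (edgeR, adjusted p = 0.00143). Its share of the counts of the 10 neuronal alpha genes was 8.58% to 15.4% in WT libraries and 21.7% to 37.0% in *mtmr5*-KO. The other copy, *chrna7a*, held 7 raw counts in all and was below the filter.

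*chrnb3b*, an accessory beta 3 subunit, fell. Its raw counts were 77, 60, 48 and 69 in WT and 11, 1, 11 and 3 in *mtmr5*-KO libraries. After scaling it was at 44.5 ± 7.30 and 11.9 ± 9.70, without overlap, a log2 fold change of -1.92 ± 0.58 (edgeR, adjusted p = 0.0269). The call was lost on leaving out *mtmr5*-KO replicate 4 or any WT library but replicate 3, with adjusted p-values of up to 0.0744. *chrna6*, an alpha subunit that in mammals is found in dopamine neurons and retinal ganglion cells, often with beta 3, was at 451, 364, 292 and 302 in WT and 321, 239, 157.5 and 112 in *mtmr5*-KO libraries. It was lower in 4 of 4 replicate numbers, with a log2 fold change of -0.75 ± 0.27 that did not pass (edgeR, adjusted p = 0.057) and passed with the block (-0.83 ± 0.19, adjusted p = 0.00245). Without a block it also passed with DESeq2 (adjusted p = 0.0359), limma-voom (0.041), limma on the normalized counts (0.0391) and edgeR with no count filter (0.0343). Of the edgeR fits that left out 1 library, *chrna6* passed only in that without *mtmr5*-KO replicate 1. Without *mtmr5*-KO replicates 3 and 4 it was at -0.38 and did not pass (edgeR, adjusted p = 0.30). The sum of the bipolar cell and photoreceptor markers, carried mostly by photoreceptor genes, was lower in the same 4 replicate numbers as *chrna6*. That list holds no marker of retinal ganglion cells, and the part of the retina in *chrna6* was not tested.

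*chrnb2*, the beta subunit of the most common neuronal nicotinic receptor of the mammalian brain, lay between 392 and 434 in WT libraries and between 324.5 and 353 in *mtmr5*-KO, without overlap (-0.27 ± 0.14, edgeR adjusted p = 0.20). The other neuronal nicotinic genes were not called and overlapped between genotypes. *chrna10a*, whose mammalian counterpart serves hair cells with alpha 9, is named here after its values were seen and was at 164 ± 13.0 and 154 ± 39.2. By contrast 6 of 9 hair cell markers rose, where 13.5% of all tested genes did, with a median log2 fold change of 1.87. Among them were the mechanotransduction channel genes *tmc1* and *tmc2b* at 2.06 and 2.60. The markers *pcdh15a* (-0.63), *cdh23* (0.45) and *myo7aa* (0.23) were not called. *CHRNA9* itself had 8 to 18 raw counts in WT libraries and 0 to 4 in *mtmr5*-KO, and was not tested. Counting the lower calls of all classes together, the block gave 5 in place of 2, and leaving out a library gave 0 on dropping *mtmr5*-KO replicate 4 or any of WT replicates 1, 2 and 4. It gave 1 on dropping WT replicate 3 or *mtmr5*-KO replicate 2, and 7 on dropping *mtmr5*-KO replicate 1. The lower calls over all 19412 tested genes moved too, from 1457 to 2264 with the block and to 1829 without *mtmr5*-KO replicate 1. They numbered 744 to 1097 without a WT library, 1685 without *mtmr5*-KO replicate 2 and 1219 without *mtmr5*-KO replicate 4.

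Muscle nicotinic genes had low counts in heads, and none was called. *chrne*, the epsilon subunit of mature mammalian endplates and the member with the smallest p, was at 38.6, 12.6, 17.4 and 24.8 in WT and 12.9, 12.9, 18.2 and 0 in *mtmr5*-KO libraries. Its log2 fold change was -1.07 ± 0.71 (edgeR, adjusted p = 0.313). *chrna1*, the alpha subunit that binds acetylcholine, was at 54.8 ± 16.1 and 47.4 ± 17.4, a log2 fold change of -0.21 ± 0.36. Over the same libraries 9 of 19 skeletal muscle markers rose and 1 fell, and their summed level ran from 8156 to 9295 over the WT and from 12418 to 16010 over the *mtmr5*-KO libraries. A shift of the size of the marker median, 0.59, was not detectable for genes with standard errors of 0.36 to 0.99.

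Of the muscarinic receptors only *chrm4a* and *chrm3a* passed the filter, of 9 listed. *chrm4a*, a receptor that inhibits adenylyl cyclase, was at 110, 149, 106 and 120 in WT and 102, 67.2, 40.4 and 54.1 in *mtmr5*-KO libraries. The groups did not overlap, but *mtmr5*-KO replicate 1 lay just under the lowest WT library. Its log2 fold change was -0.87 ± 0.30 (edgeR, adjusted p = 0.0494), and the call held in only 1 of 8 fits that left out a library, the one without *mtmr5*-KO replicate 1. *chrm3a* was at 11.4 ± 3.83 and 16.4 ± 5.62, a log2 fold change of 0.50 ± 0.61.

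Many zebrafish genes persist as a and b copies from the genome duplication of teleost fish, and the ratio of copies within a library does not depend on its scale. Of 8 such pairs among the receptor genes, 2 changed their ratio at an adjusted p under 0.05 in a limma fit over all 2107 pairs of tested genes, in which 19.2% did. In 4 of 8 the ratios did not overlap between genotypes, where 22% of all pairs did not. These are few pairs, and neither share was tested against that of all pairs. The log2 ratio of *gabra6a* to *gabra6b* was 3.28, 2.999, 2.62 and 2.91 in WT and 2.47, 1.45, 1.34 and 1.28 in *mtmr5*-KO libraries, all lower. The difference was -1.31 ± 0.34 (limma, adjusted p = 0.0165), and without *mtmr5*-KO replicates 3 and 4 it was -0.99 and did not pass (adjusted p = 0.113).

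The log2 ratio of *chrnb3a* to *chrnb3b* was 1.99, 2.24, 2.56 and 1.89 in WT and 3.86, 6.67, 3.11 and 4.27 in *mtmr5*-KO libraries, all higher. The difference was 2.31 ± 0.68 (limma, adjusted p = 0.0323), and *chrnb3a* on its own was at 200 ± 12.6 and 206 ± 53.0. The log2 ratio of *gphna* to *gphnb* was lower in every *mtmr5*-KO library, between 0.53 and 0.85 in WT and between 0.20 and 0.38 in *mtmr5*-KO, and missed the threshold (-0.41 ± 0.14, limma adjusted p = 0.0516) unless the block was fitted (adjusted p = 0.0264). That of *chrna2a* to *chrna2b* did not overlap either but rested on at most 35 raw counts of *chrna2b* in a library (means -0.06 and 1.94, limma adjusted p = 0.149). The remaining 4 pairs overlapped, and the narrowest interval of the difference (2 standard errors each way), for *glrba* to *glrbb*, ran from -0.44 to 0.34. No pair passed once WT replicate 2 was left out, and 1 passed when any other WT library or *mtmr5*-KO replicate 4 was.

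**Figure D5:**
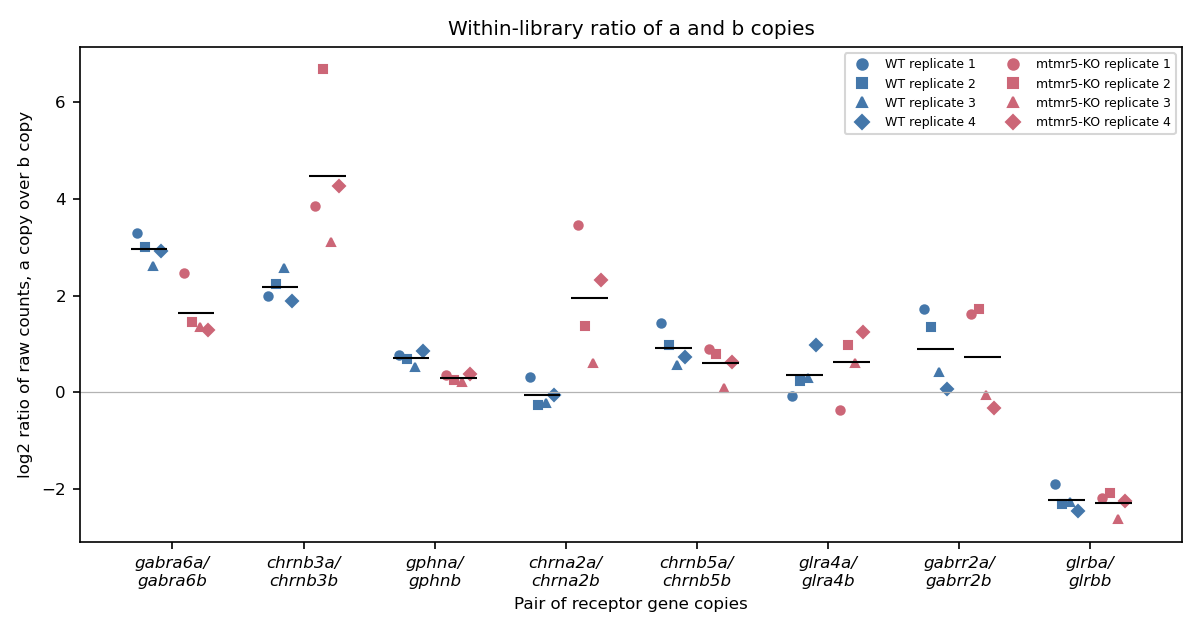
Log2 ratio of the raw counts of the a copy to the b copy (y axis) in each library, for 8 pairs of receptor genes (x axis), with lines at the genotype means. The genotypes separate for *gabra6a*/*gabra6b*, *chrnb3a*/*chrnb3b*, *gphna*/*gphnb* and *chrna2a*/*chrna2b* and overlap for the other 4 pairs.

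GABA-A and nicotinic subunit genes often lie side by side in vertebrate genomes. By the gene order of the RefSeq annotation of the GRCz12tu assembly, used only for order, 12 pairs of tested receptor genes had at most 5 genes between them. In 3 of the 12 the within-library ratio did not overlap between genotypes, against 22.5% of all neighbouring tested genes. The log2 ratio of adjacent *chrnb5b* and *chrnb3b* was 0.86 ± 0.38 in WT and 3.27 ± 1.37 in *mtmr5*-KO, and that of *chrnb3a* and *chrna6*, with 1 gene between them, was -0.80 ± 0.37 and 0.06 ± 0.31. That of adjacent *gabra6a* and *gabrb2a* overlapped between genotypes, at -1.90 ± 0.45 and -3.30 ± 0.81.

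Genes that make, carry and clear the transmitters were read for comparison from lists chosen with earlier results of these data known. Over all tested genes 13.5% rose and 7.51% fell, the shares to read beside this list and the short ones that follow. Of 12 genes for GABA and glycine synthesis and transport 6 rose and 0 fell. *slc6a9*, the glial glycine transporter, went from 2868 ± 97.6 to 8248 ± 1244 (log2 fold change 1.52 ± 0.15), and *slc6a1a*, a GABA transporter, from 5751 ± 1219 to 14978 ± 2305 (1.38 ± 0.19). *slc6a1b*, the other copy of that transporter, rose by 0.61 ± 0.16 on the log2 scale, and *aldh5a1*, which ends GABA breakdown, by 0.93 ± 0.20. The list's median, 0.49 under TMM, was -0.45 under library totals and 0.06 under the pan-neuronal scale, which is 0.53 above the median of all genes in both. Such a relative value hardly depends on the scale.

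Of 3 chloride transporters that set the response to GABA and glycine, 1 rose and 1 fell. *slc12a5b*, a copy of KCC2, which lowers chloride in mature neurons, was at 133 ± 54.9 and 433 ± 41.9 (log2 fold change 1.70 ± 0.27, edgeR adjusted p = 0.000288). *slc12a2*, NKCC1, which raises chloride, was at 1047 ± 181 and 573 ± 186 (-0.87 ± 0.20, edgeR adjusted p = 0.00596). The other KCC2 copy, *slc12a5a*, was at 81.3 ± 17.1 and 83.2 ± 18.5 (0.04 ± 0.28, edgeR adjusted p = 0.941). Under library totals *slc12a5b* was not called. For acetylcholine, *slc5a7a*, which takes up choline, rose (0.90 ± 0.17), and *ache*, the esterase that breaks the transmitter down, fell (-0.67 ± 0.17), of 5 genes tested.

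Of 17 genes for receptor assembly and clustering 1 rose and 2 fell, where 13.5% of all tested genes rose and 7.51% fell. *ric3a*, a copy of a chaperone of nicotinic receptors including alpha 7, went from 949 ± 120 to 2667 ± 801 (log2 fold change 1.49 ± 0.19). *arhgef9a*, a copy of collybistin, which brings gephyrin to the membrane, went from 678 ± 125 to 349 ± 89.0 (-0.95 ± 0.20). The more highly counted copy, *arhgef9b*, was at 1256 ± 141 and 1181 ± 180 (-0.09 ± 0.15, edgeR adjusted p = 0.719). *kctd12.1*, of the family of GABA-B auxiliary subunits, fell by 0.57 ± 0.17. Of 5 neuromuscular junction genes *agrn*, which clusters muscle nicotinic receptors, fell (-0.48 ± 0.13).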

How the data were processed

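RNA of pooled zebrafish heads was sequenced as 8 libraries. The authors (methods and submitters' processing notes) trimmed reads (Trim Galore 0.6.7), aligned them to GRCz11 (STAR 2.7.11a) and deposited raw counts of uniquely mapping reads per gene (HTSeq 2.0.5). They also deposited normalized counts, a signal equal to the raw counts over 1 DESeq2 size factor per library, which served in 1 alternative. The counter's strand setting is not known from the sources, so reads of overlapping antisense genes may not be told apart, and copies of near-identical sequence may lose reads. Symbols are those of the files, and 52 of the 55 receptor genes have a RefSeq entry of that symbol.

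Genotype and replicate came from the sample labels. All rows reaching 10 counts in 3 or more libraries were fitted with edgeR 4.0.16 (TMM, robust glmQLFit and glmQLFTest, genotype only) in R 4.3.3, and copy ratios, as log2 of counts plus 0.5, with limma 3.58.1. The fits were tested on simulated data. Alternatives were other scalings and filters, DESeq2 1.42.0, limma-voom, each library left out, *mtmr5*-KO replicates 3 and 4 left out, other pseudocounts and the replicate number as a block. The scale from pan-neuronal markers was added after the data were seen. Same-numbered libraries deviated together, with correlations of 0.167, 0.281, 0.170 and 0.214 and every WT library closest to its own number, so the numbers were taken to pair the libraries. This rests on the data: the sources say that the WT larvae were siblings and that breeding pairs differed, but not which libraries shared parents.

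Values in every library are given for genes past the study's thresholds and the smallest p of each class, and log2 fold changes for all called genes, their copies and the 2 most highly counted uncalled genes of each class. Counts and sums cover all 55 genes, but 3 of them are not reported here by name. The members and gene lists were chosen with earlier results of these data known.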

Additional observations from a re-analysis of the deposited data

Results flagged for a closer look

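The named receptor genes were checked in both genotypes for a library far from the other 3 of its group (Dixon's test, which by chance marks about 1 in 20 groups), and 4 of 48 checks found one. *gabbr2* was at 12.5 TMM-scaled counts in *mtmr5*-KO replicate 4, where the other *mtmr5*-KO libraries were at 24.2 to 25.8. *gabra5* was at 121 in WT replicate 1, where the other WT libraries were at 149 to 154. *gabrb2a* was at 2306 in WT replicate 4, against 1718 to 1807 in the others. *gphna* was at 2923 in the same library, against 2245 to 2345. The calls of *gabra5* and *gabrb2a* held without those libraries.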

How the results depend on the processing

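Of 9 higher and 2 lower receptor genes, library totals gave 1 and 28 (3.7% and 55.7% of all genes), the pan-neuronal scale 5 and 14 (8.2% and 32.5%). Upper quartile factors gave 1 lower, where 1196 of all 19412 genes were called lower. The replicate block gave 11 higher and 5 lower, where 2879 and 2264 of all 19412 genes were called. Among the genes reported here, the replicate block changed no other call than those of *GABBR1*, *GABRB2*, *chrna6* and *gabrr1*. At the stricter thresholds the 5 higher genes became 0 under library totals, 1 under the pan-neuronal scale and 2 without *mtmr5*-KO replicates 3 and 4. The 0 lower genes became 19 under library totals, where the median of all genes was itself at -0.98, 3 under the pan-neuronal scale and 1 with DESeq2. Shares of all genes past the stricter thresholds were taken only for the main fit. Whether the counts of other fits are particular to receptor genes therefore cannot be told. Leaving out 1 library gave 0 to 7 lower genes, where 744 to 1829 of all 19412 genes were called lower. It gave 2 to 6 higher and 0 to 1 lower genes at the stricter thresholds, and 0 to 2 pairs. Among pairs with both copies at a mean of at least 100 counts, which hold neither of the 2 called pairs, 1 was called, *gphna*/*gphnb* (limma, adjusted p = 0.0377), and leaving out *mtmr5*-KO replicates 3 and 4 left 1, *chrnb3a*/*chrnb3b*. The cause was not tested, beyond the shift of all genes that each scale brings.

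Some log2 fold changes changed sign. Under library totals these were *chrm3a* (-0.54), *chrnb3a* (-0.88), *gabbr2* (-0.41), *gabra6b* (-0.025), *gabrr2a* (-0.94), *gphna* (-0.68) and *gphnb* (-0.28). Under the pan-neuronal scale they were *chrnb3a* (-0.40), *gabrr2a* (-0.49) and *gphna* (-0.14), and with no filter *gabrr2a* (-0.032). Without *mtmr5*-KO replicates 3 and 4 they were *GABBR1* (-0.042), *gabra6a* (0.021) and *glra3* (0.037), with the ratios of *glra4a*/*glra4b* (-0.052), *glrba*/*glrbb* (0.10) and *gabrr2a*/*gabrr2b* (0.77). Leaving out 1 library, values crossed 0 for *chrna1* (-0.51 to 0.012), *chrnb3a* (-0.12 to 0.16), *gabrr2a* (-0.19 to 0.46), *glrba*/*glrbb* (-0.12 to 0.063) and *gabrr2a*/*gabrr2b* (-0.48 to 0.20). None of these genes was called except *gabra6b* and *gphnb*.

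Depth limits the rest: 17 of 55 receptor genes averaged under 50 scaled counts, so small changes in them were not detectable.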
